A study of Mus musculus with 4 samples.

Results

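The 10 genes described here encode the NF-kB transcription factor subunits and proteins grouped as inhibitors of the pathway. They were chosen by name, and the rows whose gene name is one of Nfkb1, Nfkb2, Rel, Rela, Relb, Nfkbia, Nfkbie, Nfkbiz, Tnfaip3 and Bcl3 were taken from the 54532 genes in the files. All 10 passed the filter on low counts, which left 15961 genes for testing. RNA sequencing counts came from tumours of MMTV-PyMT mice, in which the mouse mammary tumour virus promoter drives the polyoma middle T oncogene in mammary epithelium. Both groups carry the label Dll1 mcherry+ and the strain C57BL/6, and the cells are called primary mouse breast cancer-associated fibroblasts (CAFs). The unirradiated CAF group (libraries A and B) had no radiation, and the irradiated CAF group (libraries A and B) received 6 Gy. The titles give day 6 for all 4 libraries, and the treatment label also places the radiation at day 6. Tumours were digested with collagenase and hyaluronidase, and an antibody against PDGFRa, a fibroblast surface receptor, was used to detect the fibroblasts. No age is given, the interval from radiation to collection is not stated, and nothing says that A and B are separate animals or cultures. The p-values below therefore rest on how much A and B differ, mostly as pooled over all genes, and that difference may be technical.

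NF-kB factors are dimers of 5 related proteins that share a Rel homology domain for DNA binding. In resting cells the IkB inhibitors hold the dimers in the cytoplasm. Signals from cytokine and Toll-like receptors activate the IkB kinase complex, the inhibitor is degraded, and the dimer enters the nucleus and switches on inflammatory genes. Some of these genes encode the inhibitors themselves, which closes a negative feedback loop. In tumour stroma the pathway is known for driving cytokine and chemokine production by fibroblasts and macrophages.

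Promoter sequences are shown for 5 members because they include the member that rose most and both that fell, and because kappa-B sites, the DNA sequences bound by NF-kB, are a known feature of several of these genes. The sequences are from RefSeq on build GRCm38.p6. The RefSeq promoter table matched 7 of the 10 members by symbol, with 10 windows between them (Nfkb1, Relb and Nfkbiz had no entry). Each window spans 300 bases, 250 before and 50 after an annotated start. The 250 bases before the start are printed from 5′ to 3′ on the gene's own strand, and capitals mark matches on either strand to 2 patterns, which can overlap each other. The 10-base pattern is GGG, then any 2 bases, then TTTCC, and the 9-base pattern is GGGNNTTCC, where N is any base.
Nfkbie, chr17:45555450-45555699 (plus strand): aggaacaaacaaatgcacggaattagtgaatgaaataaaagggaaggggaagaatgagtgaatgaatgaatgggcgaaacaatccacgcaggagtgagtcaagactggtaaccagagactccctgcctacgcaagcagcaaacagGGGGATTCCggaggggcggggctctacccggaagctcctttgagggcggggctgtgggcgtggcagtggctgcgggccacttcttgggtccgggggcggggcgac
Nfkb2, chr19:46304487-46304736 (plus strand): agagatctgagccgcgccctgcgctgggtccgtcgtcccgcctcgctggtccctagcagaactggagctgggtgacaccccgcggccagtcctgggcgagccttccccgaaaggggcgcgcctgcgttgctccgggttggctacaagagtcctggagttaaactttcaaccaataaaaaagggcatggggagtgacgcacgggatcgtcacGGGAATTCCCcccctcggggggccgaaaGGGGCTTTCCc
Tnfaip3, chr10:19015411-19015660 (minus strand): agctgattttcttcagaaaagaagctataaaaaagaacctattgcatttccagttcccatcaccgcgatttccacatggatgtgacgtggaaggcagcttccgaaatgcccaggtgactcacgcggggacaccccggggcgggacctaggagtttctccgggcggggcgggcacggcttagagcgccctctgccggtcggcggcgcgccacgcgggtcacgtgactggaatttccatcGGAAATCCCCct
Nfkbia, chr12:55492648-55492897 (minus strand): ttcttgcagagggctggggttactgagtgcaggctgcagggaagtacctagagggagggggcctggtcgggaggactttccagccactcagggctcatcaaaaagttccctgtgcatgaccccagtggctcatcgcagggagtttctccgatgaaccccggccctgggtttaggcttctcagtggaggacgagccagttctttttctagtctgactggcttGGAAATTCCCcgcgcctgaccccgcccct
Bcl3, chr7:19822756-19823005 (minus strand): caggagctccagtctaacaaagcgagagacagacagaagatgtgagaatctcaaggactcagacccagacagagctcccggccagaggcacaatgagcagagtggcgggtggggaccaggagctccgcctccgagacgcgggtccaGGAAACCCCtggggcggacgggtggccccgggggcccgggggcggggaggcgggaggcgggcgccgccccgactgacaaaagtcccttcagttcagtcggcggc

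The 10-base pattern lay in 1.63% of the 32851 mouse promoter windows in the table and in 6 of the 10 windows of members, which belong to Nfkb2, Rel, Nfkbia and Tnfaip3. Windows 2 and 3 of Nfkb2 overlap and hold the same match. The 9-base pattern lay in 5.82% of all windows and in 5 of the members' windows, 1 each for Nfkb2, Rel, Nfkbie, Tnfaip3 and Bcl3. At least 1 of the pair was present for 6 of the 7 members with an entry, against 7.93% of the 27025 genes in the table. The Rela window held neither. A broader pattern, GGG and CC with any 5 bases between them, was in all 10 windows of members but also in 50.8% of all windows. Measured from the RefSeq start, the match of Nfkbia was at -29 to -20, that of Nfkbie at -105 to -97, and that of Tnfaip3 at -12 to -3. The coordinates given with the counts place the start of Tnfaip3 at 19015657 on the minus strand. By those coordinates its match, at 19015413 to 19015422, lies inside the gene. Bcl3 had matches at -104 to -96 and at 4 to 12. Members that rose and members that fell both carried such matches. A match describes letters in the window and is not a measured binding site.

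**Figure D1:**
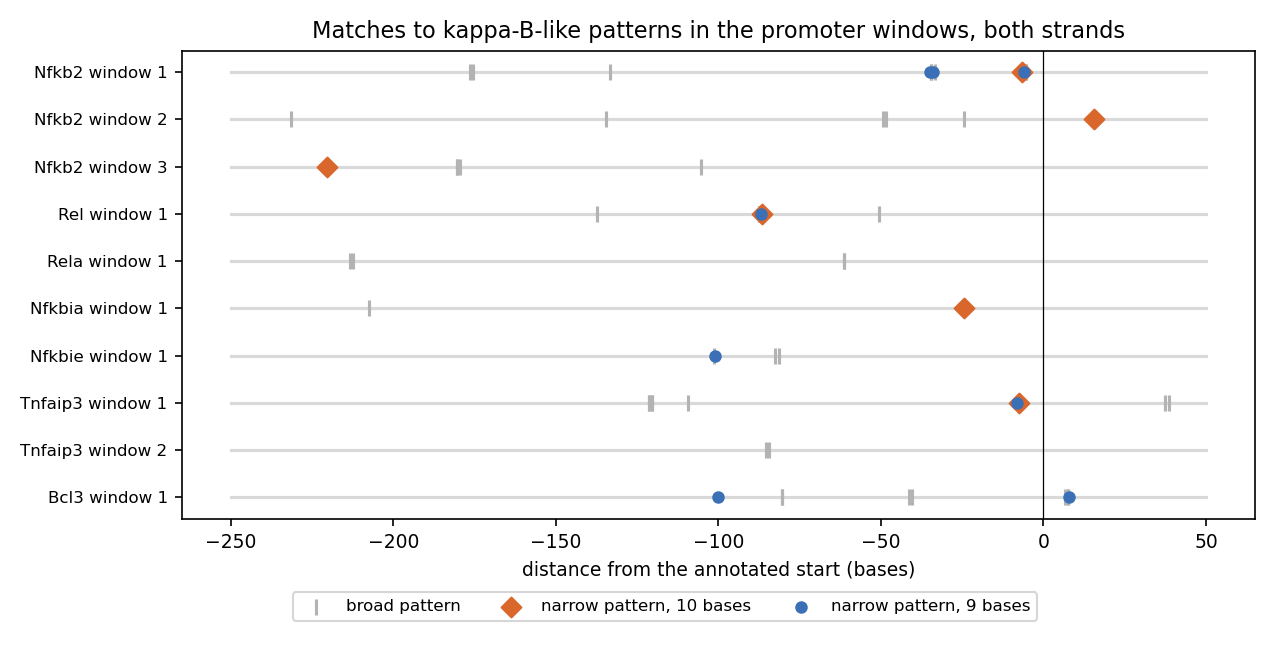
Positions of matches in the 10 promoter windows of 7 members, in bases from the annotated start on the x axis, with 1 line per window. Diamonds mark the 10-base pattern, circles the 9-base pattern and grey ticks the broader pattern. The first windows of Nfkb2 and Tnfaip3 and the Nfkbia window hold a match of a narrower pattern less than 30 bases before the RefSeq start. The Rela window and window 2 of Tnfaip3 hold only the broader pattern.

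All 5 subunit genes were higher in the irradiated libraries, by 0.63 to 0.91 on the log2 scale. Of the 5 inhibitor genes, Nfkbie, Tnfaip3 and Nfkbiz were higher, and Bcl3 and Nfkbia were lower. Of the 10 members, 8 were higher and 2 lower by edgeR's quasi-likelihood test (adjusted p under 0.05), where 66.4% of all tested genes were called, 33.9% higher and 32.5% lower. The 2 libraries of 1 group did not overlap those of the other for any member, which was also so for 82.5% of tested genes (41.5% higher and 40.9% lower). The median log2 fold change was 0.76 over the subunits, 0.15 over the inhibitors and 0.70 over all members, against -0.0042 over all tested genes. Against a change of 1.5-fold instead of none, 6 members were higher and 0 lower, beside 12.7% and 11.0% of tested genes. Those 6 were Nfkb2, Rel, Rela, Relb, Nfkbie and Tnfaip3. DESeq2 also gave 8 members higher and 2 lower, where it called 40.3% of its tested genes, 22.8% higher and 17.4% lower. With each library's trends with gene length and GC content removed, 8 members were higher and 1 lower, beside 63.1% of genes called, 31.8% higher and 31.3% lower. Nfkbia then counted among the higher members and Nfkbiz was not called. In bulk RNA, a change in the number of cells of a type and a change in RNA per cell cannot be told apart.

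Levels are CPM, counts relative to library size, scaled by the trimmed mean of M-values (TMM). Fold changes and standard errors (SE) are on the log2 scale, and adjusted p-values are Benjamini-Hochberg values over all 15961 genes from edgeR.

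Rela encodes p65, the subunit with the main transactivation domain of the classical pathway, and lies on chromosome 19 at 5637483 to 5648130 (mm10). Rela was at 149 and 146 CPM in unirradiated A and B and at 245 and 242 CPM in irradiated A and B. The lowest irradiated library was far above the highest unirradiated one, with group means of 148 ± 1.81 and 243 ± 2.59 CPM (SD, n = 2 each). The change was 0.72 (SE 0.0481, edgeR adjusted p = 6.17e-21). Nfkb1, on chromosome 3 at 135584655 to 135691547, encodes the precursor that is processed to p50, the usual partner of p65. Its levels were 110.2 and 114 CPM without radiation and 171 and 175 CPM with it, and the groups did not overlap. Its change of 0.63 (SE 0.0519, edgeR adjusted p = 5.51e-17) was the smallest of the subunits and did not pass the test against 1.5-fold (adjusted p = 0.218). Nfkb1 is the longest member, at 12061 bases. Over 15 alternative settings its change ranged from 0.35 to 0.69, so its size depended on the processing.

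Rel encodes c-Rel, a subunit best known from lymphocytes and macrophages, and lies on chromosome 11 at 23736847 to 23770970. It had the lowest counts of the subunits, at 18.5 and 18.0 CPM in the unirradiated and 34.2 and 34.5 CPM in the irradiated libraries. The libraries within each group were nearly equal and the groups stood well apart. The rise was 0.91 (SE 0.0960, edgeR adjusted p = 8.46e-13), and its 95% interval ran from 0.72 to 1.10.

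Nfkb2 and Relb encode the dimer of the non-canonical pathway, in which the Nfkb2 precursor is processed to p52. Nfkb2, on chromosome 19 at 46304737 to 46312090, was at 97.2 and 93.4 CPM without radiation and at 162 CPM in both irradiated libraries. Relb, on chromosome 7 at 19606217 to 19629438, was at 34.9 and 31.4 CPM without and at 61.7 and 59.7 CPM with radiation. For neither gene did a library of 1 group reach the range of the other. The changes were 0.76 (SE 0.0535, edgeR adjusted p = 5.19e-20) for Nfkb2 and 0.86 (SE 0.0758, edgeR adjusted p = 8.86e-16) for Relb. The 95% intervals were 0.66 to 0.87 and 0.71 to 1.01. The differences between the subunits' changes were not tested.

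**Figure D2:**
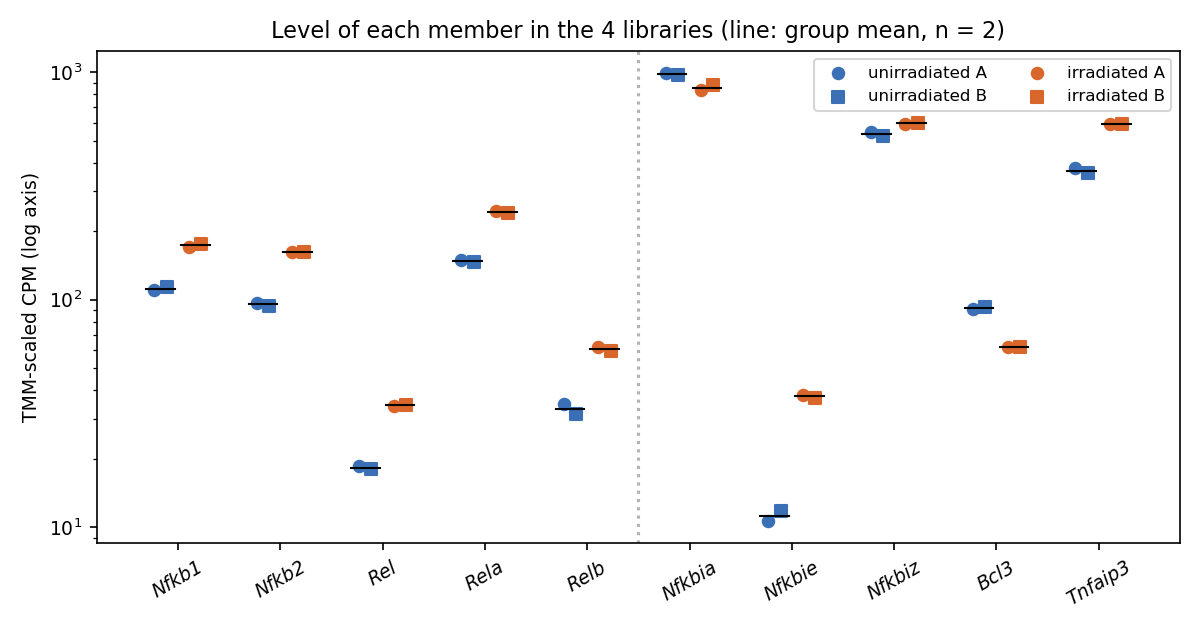
TMM-scaled CPM on a log axis for each member in the 4 libraries, with blue for unirradiated, orange for irradiated, circles for A, squares for B and a line for each group mean (n = 2). The 5 subunits, Nfkbie and Tnfaip3 sit visibly higher with radiation, Bcl3 sits lower, and the groups of Nfkbia and Nfkbiz are close.

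Nfkbia encodes IkB-alpha, the classical inhibitor that is degraded on stimulation and resynthesised under NF-kB control. It lies on chromosome 12 at 55489410 to 55492647. Nfkbia was the most abundant member, at 990.2 and 970.1 CPM without radiation and at 831 and 875 CPM with it. The mean fell from 980.1 ± 14.2 to 853 ± 30.9 CPM (SD, n = 2 each), with both irradiated libraries under both unirradiated ones. The change was -0.20 (SE 0.0379, edgeR adjusted p = 5.67e-06), but it turned to 0.078 (edgeR adjusted p = 0.0185) once each library's trend with gene length was removed and to 0.12 (edgeR adjusted p = 4.13e-04) with the GC trend removed as well. Nfkbia is the shortest of the 10 members, at 1610 bases.

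Nfkbie encodes IkB-epsilon, another cytoplasmic inhibitor with preference for dimers of p65 and c-Rel, and lies on chromosome 17 at 45555703 to 45563169. It showed the widest change of the 10 members, from 10.7 and 11.7 CPM without radiation to 38.3 and 37.0 CPM with it. The irradiated libraries were both more than 36 CPM and the unirradiated ones under 12 CPM. The rise was 1.75 (SE 0.106, edgeR adjusted p = 6.18e-23), or 3.37-fold, with a 95% interval of 1.54 to 1.97. Its change was higher than that of 94.9% of tested genes.

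Nfkbiz and Bcl3 encode nuclear IkB proteins, which bind p50 or p52 dimers on DNA and adjust transcription in place of holding dimers in the cytoplasm. Nfkbiz, on chromosome 16 at 55811375 to 55838899, was at 546 and 526 CPM without and at 594 and 596 CPM with radiation. This was a rise of 0.15 (SE 0.0398, edgeR adjusted p = 7.48e-04). That call was lost with the length trend removed, where the value was 0.049 (edgeR adjusted p = 0.192). Bcl3 lies on chromosome 7 at 19808462 to 19822770, 179 kilobases from Relb, and moved the other way from it. It was at 90.7 and 92.5 CPM without radiation and at 61.9 CPM in both irradiated libraries. The irradiated libraries were nearly identical and well under the unirradiated ones. The fall was -0.57 (SE 0.0613, edgeR adjusted p = 2.31e-12), and it did not pass the test against 1.5-fold (adjusted p = 0.82).

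Tnfaip3, on chromosome 10 at 19000910 to 19015657, encodes a ubiquitin-editing enzyme, also called A20, that shuts off signalling upstream of the IkB kinases. It was at 378 and 361 CPM without radiation and at 594 CPM in both irradiated libraries. The groups did not overlap, and the rise was 0.68 (SE 0.0412, edgeR adjusted p = 4.3e-23). Over 15 alternative settings the rise of Tnfaip3 ranged from 0.49 to 0.74. The letters A and B differed by at most 0.15 on the log2 scale for any member within a group, which was in the same range as the change of Nfkbiz and under that of the other 9.

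**Figure D3:**
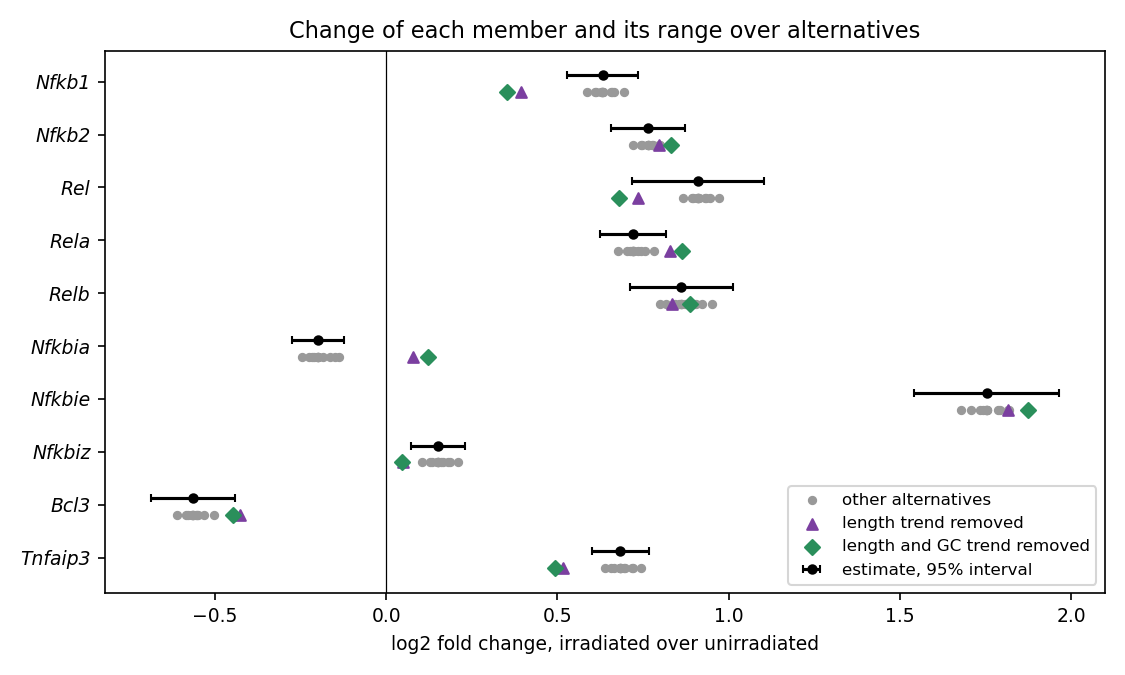
Log2 fold change of each member, irradiated over unirradiated, on the x axis, with black points and bars for the estimate and its 95% interval. Small grey points are the value under other processing settings, triangles the value with the length trend removed and diamonds that with length and GC trends removed. Nfkbia crosses 0 under these last settings, and the other 9 members stay on their side of 0.

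To compare levels between genes, CPM was divided by the gene length in the files. In the unirradiated libraries the order of mean CPM per kilobase was Nfkbia (609), Nfkbiz (107), Rela (54.3), Tnfaip3 (51.2), Bcl3 (37.0), Nfkb2 (29.0), Nfkb1 (9.28), Relb (8.53), Nfkbie (3.68) and Rel (2.44). In the irradiated libraries it was Nfkbia (530.0), Nfkbiz (119), Rela (89.6), Tnfaip3 (82.2), Nfkb2 (49.3), Bcl3 (25.0), Relb (15.6), Nfkb1 (14.4), Nfkbie (12.4) and Rel (4.60). Nfkb2 and Bcl3 changed places, as did Relb and Nfkb1. Nfkb1 and Relb were close neighbours. Their CPM per kilobase was 9.14 and 9.41 against 8.98 and 8.08 without radiation, a gap about the size of the SD of Relb (0.638), and so their order there is uncertain.

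The 5 subunits summed to 105 and 102 CPM per kilobase without radiation and to 174 and 173 with it. Rela made up 52.5% ± 0.361 of the subunit sum without radiation and 51.7% ± 0.221 with it, Nfkb2 28.0% ± 0.256 and 28.4% ± 0.162, and Rel 2.36% ± 0.00349 and 2.65% ± 0.0332 (SD, n = 2 each). With the length trend removed the Rela share was higher with radiation (51.2% and 52.9%) and that of Nfkb1 lower (9.86% and 7.52%). The 5 inhibitors summed to 816 and 798 CPM per kilobase without radiation and to 755 and 782 with it, and the groups of this sum lay close without overlapping. This direction turned with the length trend removed, to 767 and 746 without and 812 and 818 with radiation. Nfkbia made up most of the sum in every library. Within the inhibitors, the share of Nfkbia was 75.4% ± 0.0843 without and 69.0% ± 0.787 with radiation, that of Tnfaip3 6.33% ± 0.112 and 10.7% ± 0.270, and that of Nfkbie 0.456% ± 0.0374 and 1.61% ± 0.0807. With the length trend removed these shares were 73.1% and 71.6%, 7.17% and 9.53%, and 0.476% and 1.55%. The transcript ratio of Nfkbia to Rela per kilobase was 11.2 and 11.2 in the unirradiated libraries and 5.72 and 6.11 in the irradiated ones. The summed inhibitors exceeded the summed subunits 7.80 ± 0.0276 times without radiation and 4.43 ± 0.138 times with it. With the length trend removed the Nfkbia to Rela ratio was 10.6 and 10.5 without and 6.13 and 6.42 with radiation, and the inhibitor to subunit ratio 7.40 ± 0.00988 and 4.63 ± 0.0979. No test is given for these sums and ratios. An exact permutation test with 2 libraries on each side has a smallest two-sided p of 0.333. The values rest on gene lengths whose making is not given in the sources used here, and they describe RNA, not protein. The inhibitor sum pools the cytoplasmic inhibitors with the nuclear IkB genes Nfkbiz and Bcl3 and with Tnfaip3, which acts upstream. It leaves out Nfkbib, an inhibitor gene outside the members, at 23.6 CPM per kilobase without and 25.5 with radiation. The ratio of the sums is therefore not one of inhibitor to the dimers it holds.

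**Figure D4:**
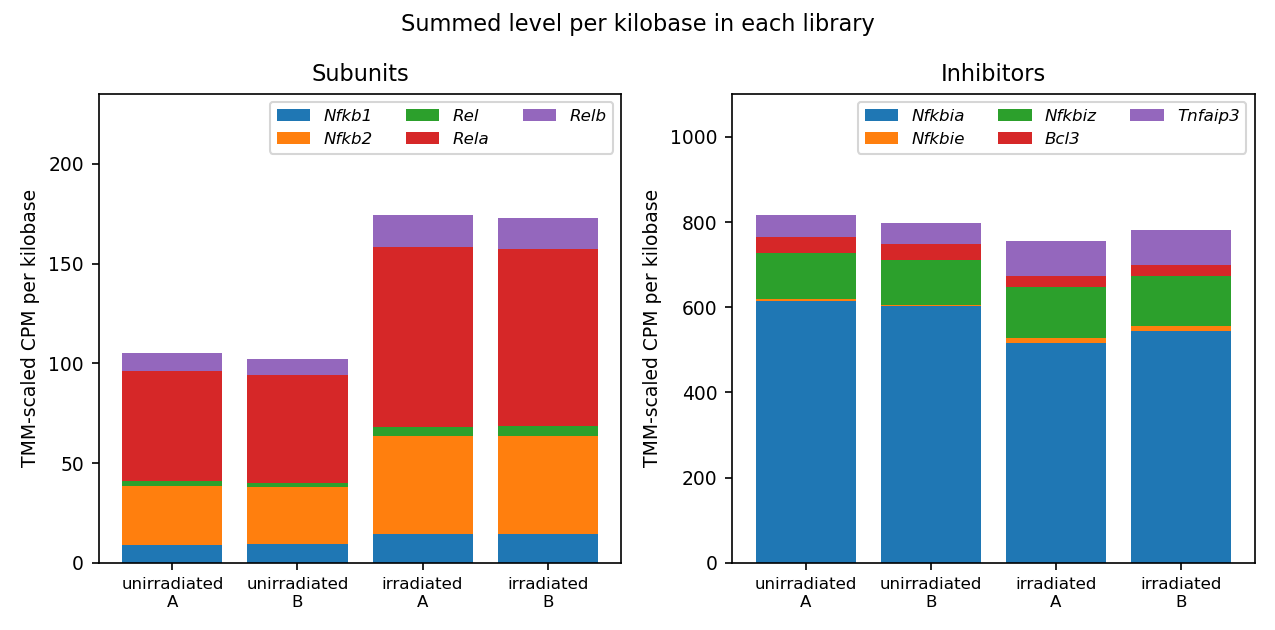
Stacked TMM-scaled CPM per kilobase of the 5 subunits (left) and 5 inhibitors (right) in each of the 4 libraries, on separate y axes from 0. The subunit sum is near 105 without and near 174 with radiation, with Rela the widest band throughout, and Nfkbia is the widest band of the inhibitors.

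By the likeness of log2 CPM over the 4 libraries, each gene centred on its own mean, the genes nearest to Nfkbie were Fxyd6, Adgrl3 and Sulf2, at Euclidean distances of 0.039, 0.0455 and 0.0511. Their log2 fold changes were 1.76, 1.76 and 1.70. The genes nearest to Bcl3 were Mknk2, Cystm1 and Pla2g12a, at distances of 0.0114, 0.0179 and 0.0221. With 4 libraries in 2 groups, this distance measures little beyond the size of the change.

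Other genes of the pathway were followed in 5 lists. Ligands that activate NF-kB were mostly higher, with 6 of 9 tested genes higher and 2 lower and a median log2 fold change of 1.5, where 33.9% of all tested genes were higher and 32.5% lower. The alarmin Il1a rose by 2.22 (from 1.64 to 7.52 CPM) and the alarmin Il33 by 2.17 (from 6.70 to 29.8 CPM). The B cell survival factor Tnfsf13b rose by 1.71 and Tnfsf12, which encodes TWEAK, by 1.51, both from levels near 1 CPM. Ltb, a lymphotoxin chain, was at 2.21 and 1.05 CPM in unirradiated A and B and 0.902 and 0.646 CPM with radiation. Its change of -1.19 was called (edgeR adjusted p = 0.0121) but not without unirradiated A (-0.49, edgeR adjusted p = 0.54) or without irradiated B (-0.91, edgeR adjusted p = 0.159). The other lower ligand, Lta, was under 1 CPM in every library. Tnf, the founding ligand of the pathway, was at 66.6 and 63.8 CPM without and 122 and 132 CPM with radiation, a rise of 0.96 (SE 0.0597, edgeR adjusted p = 2.04e-22). Tnf and Lta fall outside the rule for named genes and were chosen after their values were seen.

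Of 19 receptors, 14 rose and 2 fell (33.9% and 32.5% of all tested genes), and the median was 0.90. Il18r1, a chain of the IL-18 receptor, rose by 3.38, from 0.762 to 7.85 CPM. The Toll-like receptor genes Tlr7, Tlr1 and Tlr6 rose by 1.60, 1.36 and 1.33, all from under 1 CPM. Of these, Tlr1 and Tlr6 did not pass with DESeq2 (adjusted p = 0.0533 and 0.132), and Tlr6 did not pass without unirradiated B (1.16, edgeR adjusted p = 0.0634). Tnfrsf11a, which encodes RANK, fell by 0.43, from 50.3 to 37.0 CPM. Tnfrsf13c, the BAFF receptor of B cells, had a change of -0.62 (edgeR adjusted p = 0.026). It kept this call in only 6 of 15 alternatives, with changes of -0.79 to -0.40. The settings that lost the call include leaving out unirradiated B, irradiated A or irradiated B, and DESeq2 (adjusted p = 0.239).

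The 39 adaptors, kinases and ubiquitin ligases were divided, with 16 higher, 10 lower and a median of 0.10. Calls in this list were about as frequent as among all tested genes (66.7% against 66.4%). With the length trend removed 10 were higher and 14 lower, so the balance of the list turned. Card10, a scaffold of the CARD-BCL10-MALT1 complex, rose by 0.89 and its partner Bcl10 by 0.63. Map3k14, the NF-kB-inducing kinase of the non-canonical pathway, rose by 0.70, and Birc3, a ubiquitin ligase that limits that kinase, by 0.62. Card14, an epithelial CARD scaffold, fell by 2.75, from 34.6 to 5.20 CPM. Traf1 fell by 0.82, the kinase Irak1 by 0.66 and Sharpin, a part of the linear ubiquitin ligase complex, by 0.45. Of the IkB kinase complex, named here for its role after its values were seen, Chuk was higher by 0.25 (edgeR adjusted p = 0.00173). Ikbkb was lower, with a change of -0.33 (edgeR adjusted p = 2.1e-06). Ikbkg was not called at -0.13 (edgeR adjusted p = 0.179).

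Of 20 further inhibitors and negative regulators, 10 rose and 5 fell, and the median was 0.14. This is 75% called, not far from the 66.4% of all tested genes. Zc3h12a, an RNase that degrades cytokine transcripts, rose by 1.11, from 50.7 to 110 CPM. Pdlim2, N4bp1 and the ubiquitin ligase Itch rose by 0.89, 0.83 and 0.66. Nfkbid, a nuclear IkB protein like Bcl3 and Nfkbiz, fell by 0.98, from 23.7 to 11.9 CPM. Nfkbil1 fell by 0.61, the receptor-type inhibitor Sigirr by 0.53, and Tnip2, a partner of the enzyme made by Tnfaip3, by 0.38.

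Of 31 tested NF-kB target genes other than the members, 25 rose and 5 fell (33.9% and 32.5% of all tested genes), and the median was 1.29. The pentraxin Ptx3 rose by 3.69, from 21.1 and 21.1 CPM to 268 and 277 CPM. The chemokines Cxcl5 and Ccl2 rose by 3.36 and 3.30 and Tnfaip2 by 3.19. Mmp9, a gelatinase, fell by 1.76, from 4.80 to 1.49 CPM. Gadd45b, a stress-response gene, fell by 0.67, from 253 to 159 CPM, the collagenase Mmp13 by 0.58 (not called with DESeq2, adjusted p = 0.0586), and the mitochondrial superoxide dismutase Sod2 by 0.36. Each of these 8 targets kept its call with any 1 library left out.

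**Figure D5:**
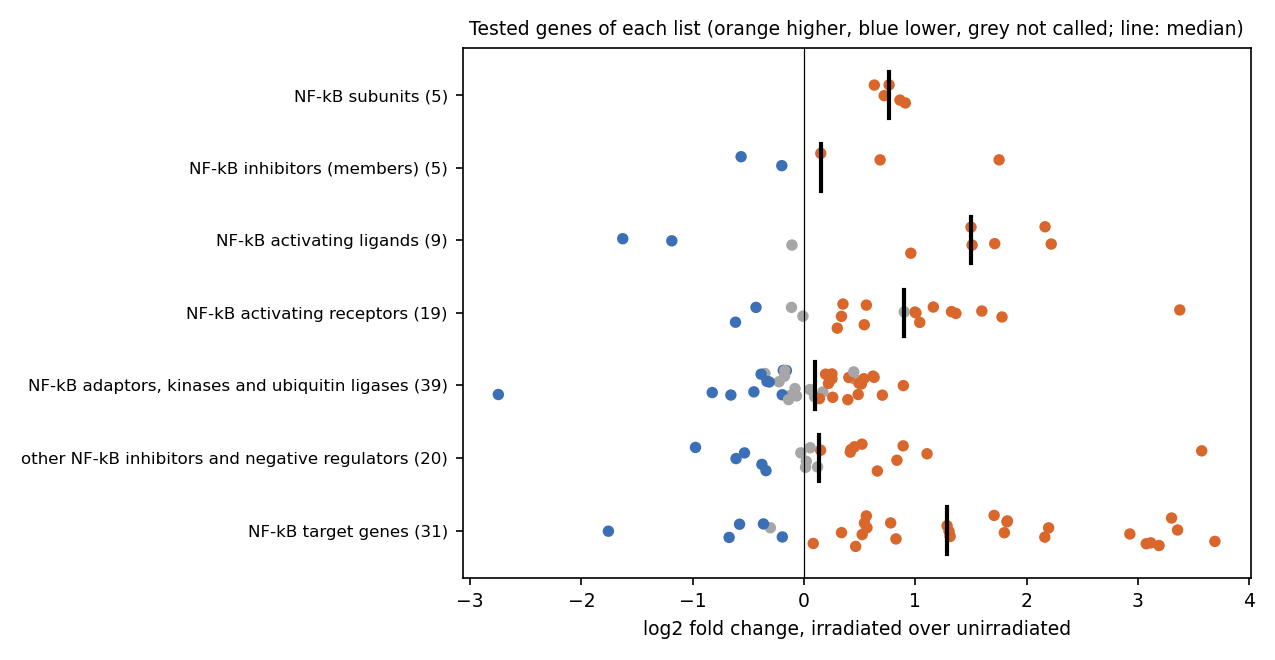
Log2 fold change, irradiated over unirradiated, of each tested gene in the 2 groups of members and the 5 pathway lists, 1 point per gene, orange for higher, blue for lower, grey for not called, with a black line at the list median. Ligands, receptors and targets lie mostly right of 0 with medians of 1.5, 0.90 and 1.29, and the adaptors and other inhibitors lie on both sides with medians of 0.10 and 0.14.

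Total counts were 13011489 to 23763830 per library, and the members took 0.225% to 0.296% of them. Marker genes of several cell types differed between the groups. Of all tested genes, 33.9% were called higher and 32.5% lower, and the counts below are to be read beside these shares. The summed level of 16 fibroblast markers was 606 to 644 CPM without and 1924 to 1931 CPM with radiation, with 13 higher and 1 lower. The sum of 16 macrophage and monocyte markers was 351 to 354 CPM and 867 to 871 CPM, with 14 higher and 0 lower. Of 16 epithelial markers, whose sum was 10307 to 10326 CPM without and 9385 to 9721 CPM with radiation, 4 were higher and 8 lower, so epithelial transcripts were abundant in libraries labelled as fibroblasts. Of 12 endothelial markers 10 were higher and 0 lower (79.2 to 81.1 CPM and 185 to 195 CPM). T and NK cell markers were low, with 0 of 10 tested genes higher, 6 lower and sums of 21.4 to 23.4 CPM and 12.1 to 12.4 CPM. Calls made up 60% of this list and 75% of the epithelial list, not far from the 66.4% of all tested genes. Of 9 tested B and plasma cell markers 3 were higher and 6 lower (267 to 272 CPM and 274 to 286 CPM). Of 3 tested dendritic cell markers 2 were higher and 1 lower. Of 11 tested neutrophil markers 1 was higher and 7 lower. The higher one was Ltf. The sum of the 11 other listed markers, with the untested Ly6g, was 76.6 and 69.4 CPM in unirradiated A and B. It was 59.5 and 24.4 CPM in irradiated A and B, so these 2 libraries differed from each other. Camp was called lower although its groups overlapped. No marker in these lists was at 0 in every library. The part of these cell types in the changes of the NF-kB genes was not tested. Reads of genes that overlap on opposite strands cannot be separated without strand. The antisense genes Gm16175 and Gm16174 at Bcl3 held 7 and 120 counts over the 4 libraries against 5226 for Bcl3. Gm43430, inside Nfkb1 and on its strand, held 40 counts against 10435, and Psd overlaps Nfkb2 by 4 bases. How shared reads were counted is not given, so these counts cannot show how many reads the genes share.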

How the data were processed

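Counts per gene were compared between 2 unirradiated and 2 irradiated CAF libraries, grouped by their labels. The authors deposited whole-number counts, not normalized, beside a gene length in bases per the file headers. STAR 2.5, HTSeq 0.6.1 and DESeq2 with mm10 are listed per the submitters' processing notes. Per the labels' protocols, the library kit does not mark strand. Aligner and counter settings were not given in the sources used here. Low counts were removed with filterByExpr, and libraries were scaled by TMM. The test was edgeR 4.0.16 (glmQLFit and glmQLFTest without the legacy dispersion, in R 4.3.3). P-values were adjusted by Benjamini-Hochberg for all 15961 genes, and 0.05 was the threshold. Each standard error was computed from the fold change and the F statistic. With 2 residual degrees of freedom, the spread was moderated across genes. One count equalled 0.0403 to 0.0809 CPM. For genes of 20 or more summed counts, the median chi-square within a pair was 2.11 and 2.14 times the counting expectation, against 28.1 to 30.5 times between groups. Every library was counted as a replicate, but these ratios cannot show whether A and B are independent, since technical repeats may also differ by more than counting. No batch is labelled, so batch and radiation cannot be told apart. The members and lists were chosen with earlier results of these data known. The text names up to 4 called genes per list and direction, those of largest change whose mean reached 1 CPM. Likeness was computed on genes whose mean reached 5 CPM. The code was tested on simulated data. The alternatives comprised DESeq2 1.42.0, RLE or upper-quartile scaling, no filter or a stricter one (1 CPM in at least 2 libraries), the replicate block, leaving out each library, a test against 1.5-fold, a 0.01 threshold and loess removal of the length trend (span 0.3). Removal of length and GC trends, the legacy dispersion and trend-corrected sums per kilobase were added after the data were seen.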

Additional observations from a re-analysis of the deposited data

How the results depend on the processing

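Of 150 results for members under the alternatives, 142 kept their direction and their side of the threshold. Nfkbia reversed to 0.078 with the length trend removed and to 0.12 with length and GC trends removed. The number of members lower was 1 under each of these and 0 in the test against 1.5-fold, where fewer genes can pass by construction. That test left 2032 genes higher and 1754 lower, 6 receptors higher and 0 lower, 1 adaptor higher and 2 lower, 4 other inhibitors higher and 1 lower, 0 ligands lower and 2 targets lower. DESeq2 called 3421 genes lower, 0 ligands, 1 receptor and 6 adaptors lower. Ligands lower numbered 1 with no filter and 0 with the stricter filter (where Ltb was not tested), the threshold of 0.01, and length or length and GC trends removed. Receptors lower numbered 1 with no filter, with the threshold of 0.01 and with either trend correction. Adaptors higher numbered 10 and lower 14 with either trend correction. Leaving out each library in turn, ligands lower ranged from 1 to 1 and receptors lower from 1 to 2, and all 10 members kept their calls. For genes named from the lists, 490 of 524 results kept their call and 0 reversed. Where no cause is given above, the cause was not tested.

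With the letter as a replicate block, 8 members were higher and 2 lower, as were 5418 and 5200 of all genes, and no member's call changed. The deviations of A from B correlated at 0.0116 between the groups, so the letters are taken as names only. Ltb, Tlr1 and Tlr6, whose calls were lost under some alternatives, were near 1 CPM. Calls were also lost with DESeq2 for genes at higher levels, such as Tnfrsf13c (means of 4.37 and 2.81 CPM) and Mmp13 (12.2 and 8.27 CPM). Tnfrsf11a (50.3 and 37.0 CPM) lost its call only in the test against 1.5-fold. Its change was smaller than 1.5-fold and could not pass that test at any level, so this loss does not bear on low counts. Whether low counts led to the lost calls was not tested. All members were above 10 CPM in every library.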
